A study of Mus musculus with 38 samples.

Results

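The regions described here are the base unpairing regions (BURs) of the mouse genome on which no SATB1 peak was called by urea ChIP-seq in thymocytes, brain or skin. They were chosen from the peak list of a BUR reference map. A BUR on chromosomes 1 to 19 or X was taken as free when it shared no base with any peak of the 6 urea SATB1 lists, 2 from each tissue, and as bound when it shared at least 1 bp with a peak of any of them. By this rule 137925 of 232068 BURs (59.4%) were free and 94143 were bound. With only the 3 lists of replicate number 1 the free share was 62.4%, and with the 3 of number 2 it was 65.0%, a mean of 63.7% ± 1.82 (SD, n = 2). These shares chose the regions and are given as a description.

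SATB1 is a nuclear protein that organises chromatin in thymocytes, in some neurons and in progenitor cells of other tissues, where it anchors DNA and regulates gene activity over long distances. Its direct targets in vitro are BURs, stretches of double-stranded DNA that unwind readily under negative superhelical stress. A BUR is rich in A and T and holds clusters of short segments in which C or G is missing from 1 strand, and SATB1 binds it in the minor groove. BURs are the same in the DNA of every cell, while SATB1 is found in only some cell types, so a BUR can be a target in vitro and carry no peak in a given tissue.

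All mice were C57BL/6 and wild type for Satb1. Urea ChIP-seq, in which crosslinked genomic DNA is purified through urea before it is fragmented and precipitated, was used for SATB1 in thymocytes, in brain cortex, where the labels name neurons as the cells that express SATB1, and in primary epidermal keratinocytes of the skin. The antibody to SATB1 was 1583D, a rabbit polyclonal serum. The same protocol with an antibody to CTCF, an insulator protein that binds its own motif, gave 1 list in thymocytes and 1 in skin. Standard SATB1 ChIP-seq in thymocytes, which precipitates soluble chromatin, gave 2 lists, the first with the antibody ab109122 and the second with 1583D. For the BUR reference map, sonicated and purified thymocyte DNA was bound in vitro by recombinant his-tagged SATB1, and the map has 1 list and no replicate. The labels give an age of 13 days for the thymocyte and skin mice, with 6 weeks in the titles of the first standard list and the thymocyte CTCF list, and 5 and 6 weeks for the brain mice, while the protocols name cortex at 13 days and keratinocytes at 5 days. The 2 urea lists of a tissue share a number in their titles. Whether they come from a single experiment is not stated there, and the paper describes the thymocyte experiments as independent. The 2 lists differ in antibody volume for thymocytes (4 and 2 ul), in sonication cycles for brain (10 and 12) and in sonication time for skin (55 and 60 s), and their spread may be technical in part. The lists hold peaks and no expression, so the identity of the tissues could not be checked against marker genes. Read depth is not given in the lists. The paper reports that the totals of aligned reads were similar between the cell types for urea ChIP-seq.

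The lists differ in size, and this sets how many BURs are free. Brain had 117963 and 109154 peaks, which lay on 37.2% and 34.2% of the BURs. Thymocytes had 45049 and 38882 peaks, on 14.6% and 12.9%. Skin had 11210 and 10846 peaks, on 3.71% and 3.64%. Of all BURs, 24.1% were bound in brain only, 11.9% in thymocytes and brain and 3.97% in all 3 tissues, while 0.291% were bound in thymocytes only and 0.168% in skin only. The free share was 83.6% when the brain lists were left out and 92.0% when each urea list was limited to its 10846 peaks of highest −log10 q, the size of the smallest list. A free BUR is therefore a BUR with no peak in lists of these sizes, and is not shown to be without SATB1.

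The sequences shown here are 200 bases around the point of highest signal (the summit) of 9 BURs, from NCBIM37, the assembly of mm9, on the plus strand. They are single BURs picked for the strongest or the median signal in vitro, for a tract or for peaks in many lists. They do not stand for the free or the bound BURs as a class. Capitals mark the longest stretch without C or without G within these bases, or, in the 3 BURs named for a tract, the tandem repeat. A tract may be written on the other strand or from another base, so that AGAT also appears as TATC. All 9 lie outside protein-coding genes. For single BURs named here and below, near a gene means 4929 bp (Psg28) to 62972 bp (Tacc1) away, and the gene serves only as a place name.
Free, near Akap13, chr7:82908155-82908354: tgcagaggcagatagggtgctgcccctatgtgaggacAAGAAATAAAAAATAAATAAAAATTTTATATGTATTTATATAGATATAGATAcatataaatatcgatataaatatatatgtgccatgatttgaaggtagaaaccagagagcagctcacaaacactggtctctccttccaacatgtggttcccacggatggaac
Free, near Lingo1, chr9:56561313-56561512: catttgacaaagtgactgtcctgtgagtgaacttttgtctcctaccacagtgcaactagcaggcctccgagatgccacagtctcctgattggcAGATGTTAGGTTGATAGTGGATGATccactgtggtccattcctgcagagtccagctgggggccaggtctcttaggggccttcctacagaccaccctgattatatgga
Free, median fold, chr13:87331096-87331295: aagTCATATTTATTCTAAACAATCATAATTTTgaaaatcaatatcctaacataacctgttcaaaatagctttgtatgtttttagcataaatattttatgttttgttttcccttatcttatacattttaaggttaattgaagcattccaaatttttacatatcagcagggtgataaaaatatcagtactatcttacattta
Free, AGAT tract near Mtrr, chr13:68676386-68676585: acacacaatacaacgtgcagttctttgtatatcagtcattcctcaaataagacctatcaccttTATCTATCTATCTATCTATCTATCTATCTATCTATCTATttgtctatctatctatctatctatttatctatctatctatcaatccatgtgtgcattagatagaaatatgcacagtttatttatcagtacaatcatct
Free, AAAT tract near Map4k4, chr1:40105787-40105986: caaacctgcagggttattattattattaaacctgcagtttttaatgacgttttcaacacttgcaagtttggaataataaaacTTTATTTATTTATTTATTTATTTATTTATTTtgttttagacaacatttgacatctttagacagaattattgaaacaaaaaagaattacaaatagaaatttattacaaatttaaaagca
Free, 4 other lists, near Tacc1, chr8:26375100-26375299: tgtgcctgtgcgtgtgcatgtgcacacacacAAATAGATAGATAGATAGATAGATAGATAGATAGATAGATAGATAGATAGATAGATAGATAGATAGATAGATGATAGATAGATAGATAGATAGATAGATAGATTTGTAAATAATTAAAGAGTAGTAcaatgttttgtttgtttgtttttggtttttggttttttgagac
Bound in all 6 lists, near Pak3, chrX:139917520-139917719: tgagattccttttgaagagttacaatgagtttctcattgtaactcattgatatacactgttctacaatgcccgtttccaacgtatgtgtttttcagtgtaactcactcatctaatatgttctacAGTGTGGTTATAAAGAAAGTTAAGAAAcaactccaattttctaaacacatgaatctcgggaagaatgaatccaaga
Bound in all 6 lists, near Dpy19l2, chr9:24346443-24346642: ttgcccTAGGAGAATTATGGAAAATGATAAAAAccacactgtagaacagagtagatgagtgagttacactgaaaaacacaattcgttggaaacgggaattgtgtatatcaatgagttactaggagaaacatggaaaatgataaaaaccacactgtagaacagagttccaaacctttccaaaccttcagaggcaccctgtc
Bound in all 6 lists, AATT tract, chr10:68047926-68048125: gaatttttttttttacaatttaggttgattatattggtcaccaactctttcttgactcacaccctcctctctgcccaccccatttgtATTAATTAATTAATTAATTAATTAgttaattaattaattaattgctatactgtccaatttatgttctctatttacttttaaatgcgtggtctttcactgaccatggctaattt
The BUR near Akap13 (chr7:82907985-82908523, 539 bp) had the highest in vitro fold enrichment of all free BURs, 35.3, and the nearest urea SATB1 peak was 31945 bp away. Fold enrichment is how many times the summit signal exceeds the local background set by the peak caller, a ratio. The next was the BUR near Lingo1 (chr9:56561153-56561688), at 33.8, with only 47.9% A and T. The other 3 of the 5 free BURs of highest fold all held tandem repeats. They lay near Klhl2 (chr8:67407871-67408406, fold 33.7, AT and AAAAC tracts), near Psg28 (chr7:19002421-19002958, fold 33.4, an AATAG tract and a peak in the second standard list) and in an intron of Mbnl2 (chr14:120787070-120787605, fold 33.3, an AG tract). The BUR of median strength (chr13:87330963-87331625) had a fold of 5.29 and an A and T content of 77.7%. The BURs near Mtrr (chr13:68676221-68676754) and Map4k4 (chr1:40105638-40106138) carried uninterrupted tracts of 39 bp and 31 bp and had folds of 29.8 and 22.6. All 50-base stretches tested in these last 2 BURs occurred once in the genome. The bound BUR near Pak3 (chrX:139917310-139917894), at a fold of 30.6, and that near Dpy19l2 (chr9:24346229-24346847), at 28.3, had a peak in all 6 urea lists and also in the 2 standard and 2 CTCF lists. The same held for the bound BUR in an intron of 2210408I21Rik (chr13:77577926-77578554), at 28.4. Such peaks are rare among BURs, on 0.649% and 0.521% of them in the standard lists and 0.221% and 0.522% in the CTCF lists. The BURs near Pak3 and Dpy19l2 and in 2210408I21Rik had extreme −log10 q-values in vitro, 8270, 4895 and 8036. Those near Akap13 and Lingo1 had 4108 and 1264, while the highest decile of all BURs starts at 94.8. Part of the sequence shown near Pak3 also appears in that near Dpy19l2, on the other strand.

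Free BURs had a weaker in vitro signal and were shorter than bound BURs. The median fold was 5.29 in free BURs (quartiles 3.98 and 8.08) and 6.82 in bound BURs (4.85 and 9.65), a difference of −1.53. It was 6.06 in BURs bound in brain only and 9.82 in BURs bound in all 3 tissues. The median length was 416 bp in free BURs (quartiles 336 and 499 bp) and 469 bp in bound BURs (386 and 566 bp). Both differences had the same sign on 20 of 20 chromosomes. With the lists of a single replicate number their means were −1.68 ± 0.00510 in fold and −57 ± 1.41 bp in length (SD, n = 2). These SDs belong to those means, which differ from the values with all 6 lists. BURs are not replicates, so these differences and those that follow are descriptions without a p-value. Within 4 classes of similar BUR length the difference in fold was −0.202, and within 4 classes of similar fold the difference in length was −16 bp. With lists of equal size the differences were −4.06 and −91 bp, and without the brain lists the difference in fold was −2.65.

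Strength in vitro did not separate free from bound BURs in a simple way. When all BURs were ranked by fold and divided into 10 deciles of equal number, the free share was 77.2% in the lowest decile (folds up to 3.48), 48.8% in decile 8 and 51.3% in the highest (folds from 12.3 to 35.3). The deciles of length went from 76.9% free (279 to 302 bp) to 34.6% free (637 bp and longer).

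At the edge of the rule, the free and the bound BURs were alike. Of the free BURs, 1300 had a urea SATB1 peak 1 to 100 bp away, and of the bound BURs, 739 shared 1 to 100 bp with peaks. The former had a median fold of 4.84 and a length of 424 bp, and the latter had 4.73 and 415 bp. Few BURs were within 100 bp of the edge, while 21220 free BURs (15.4%) had a peak 1 kb away or less. The median distance from a free BUR to the nearest urea SATB1 peak was 4681 bp (quartiles 1754 and 11218 bp), 27.9% were over 10 kb away, and 94.7% of the bound BURs were covered by peaks over at least 50% of their length.

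The reads were 50 bases long and only unique matches were kept by the authors, so each BUR was scored by the percentage of its 50-base stretches, taken every 10 bp, that occur once in the reference. Of 2500 BURs in which no stretch was unique, 93.6% were free. The share was 82.5% of the 3923 BURs with up to 50% unique stretches, 79.5% of the 46965 between 50% and 100%, and 53.2% of the 178680 BURs that were unique throughout. The fully unique BURs made up 68.9% of the free and 88.9% of the bound BURs. The part of read mapping in the free share was not tested beyond these values, and the main sequence results are therefore also given for fully unique BURs.

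Free BURs held tandem repeats more often than bound BURs. A tandem repeat was counted where a unit of 1 to 6 bases was repeated without error over at least 24 bp, and units that are rotations or complements of each other were counted as 1. Of the free BURs, 33.0% held such a tract, against 7.56% of the bound BURs, 6.74% of those bound in brain only and 12.4% of those bound in all 3 tissues. Seen the other way, 45459 of 52576 BURs with a tract (86.5%) were free, and 92466 of 179492 without one (51.5%), a difference of 34.9 percentage points. The difference was 29.5 points among fully unique BURs. It was 13.0 points without the brain lists and 5.88 points with lists of equal size, where nearly all BURs counted as free.

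The commonest unit, AGAT, was found in 19900 BURs, of which 91.7% were free (92.6% and 93.2% with the lists of each replicate number). These BURs had a median fold of 10.8 in vitro, above the median of the bound BURs, and a median tract of 51 bp that lay over the summit at a median distance of 0 bp. They made up 13.2% of the free and 1.74% of the bound BURs. The unit AAAT was found in 17104 BURs, of which 94.2% were free, with a median fold of 7.96. AAT was found in 7486 BURs and 86.6% of them were free. The BURs near Mtrr and Map4k4 shown above are examples, strong in vitro and without a urea SATB1 peak, although that near Mtrr had a peak in the second standard list. In the 1932 fully unique BURs with AGAT the free share was 88.0%, in the 6673 with AAAT 92.5% and in the 3929 with AAT 85.3%, against 53.2% of all fully unique BURs.

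The pattern was the same in each list. BURs without a tract had a peak in 17.4% and 15.1% of cases in the 2 thymocyte lists, in 44.6% and 41.2% in the 2 brain lists and in 4.17% and 4.08% in the 2 skin lists. With AGAT, the shares were 2.37% and 2.05% in thymocytes, 7.22% and 6.59% in brain and 0.673% and 0.608% in skin. With AAAT, they were 1.72% and 1.60% in thymocytes, 5.09% and 4.31% in brain and 0.462% and 0.456% in skin. In every tissue the replicates were close together and far from the BURs without a tract. Longer tracts went with a higher free share for AGAT, from 88.3% of BURs with a tract of 24 to 29 bp to 93.3% from 60 bp on, and for AAAT, from 89.6% to 97.1%, while the median fold of the AGAT BURs went from 7.59 to 12.9. For AAT the share was 75.7% at 24 to 29 bp and 89.2% at 40 to 59 bp, and 70.6% of the 34 BURs with a longer tract were free.

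Of the 26 units found in at least 100 BURs, 25 had a free share above the 59.4% of all BURs. Among fully unique BURs, 22 of the 26 were above the 53.2% of all of these, several of them on few BURs. The simple alternation AT was found in 2144 BURs, with 82.0% free, and 80.3% in fully unique BURs. AG and AC were lower, at 79.0% and 69.0%, and at 63.6% and 53.7% in fully unique BURs. The lowest of the 25 were ACT and AATC, at 61% and 61.4%, on few BURs (213 and 158), and in fully unique BURs they were at 45.3% and 47.7% and ATC at 52.3%.

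The exception was AATT. Only 126 of its 862 BURs (14.6%) were free, below the free share of all BURs on 20 of 20 chromosomes, and 9.95% of its 583 fully unique BURs were. Its median fold (8.58) was close to that of AAAT (7.96), and its tract (a median of 28 bp, against 37 bp) likewise lay over the summit. BURs with AATT had a peak in 64.0% and 82.1% of cases in the thymocyte lists, 75.4% and 66.6% in the brain lists and 50.3% and 53.0% in the skin lists, against 3.71% and 3.64% of all BURs in skin. The thymocyte lists differed from each other by more here than in any other class given. The bound BUR with an AATT tract shown above (chr10:68047732-68048331, 24 bp, fold 20.5) had a peak in all 6 urea lists and none in the standard or CTCF lists.

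**Figure D1:**
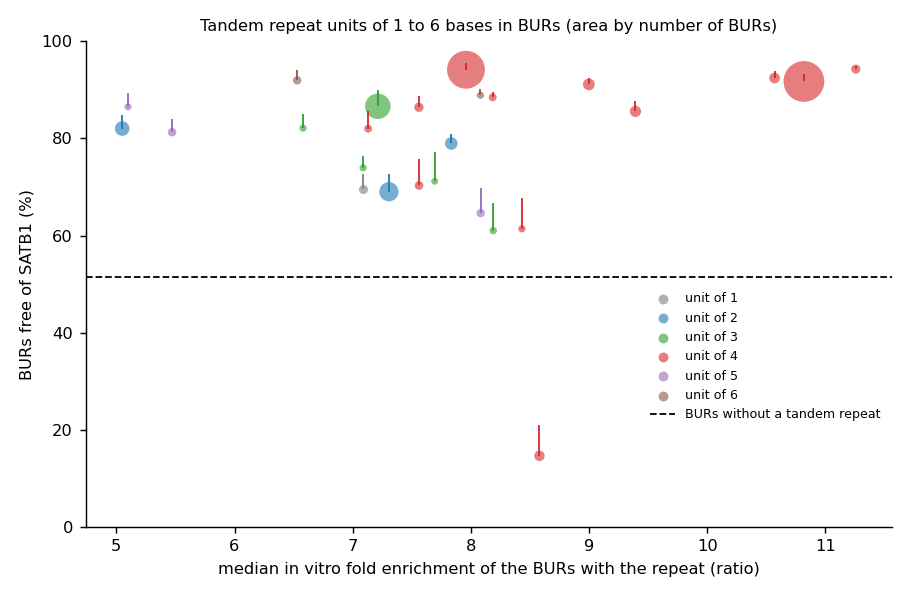
Each point is a tandem repeat unit found in at least 100 BURs, placed by the median in vitro fold enrichment of its BURs (horizontal axis, a ratio) and by the percentage of them that were free (vertical axis); area grows with the number of BURs, colour gives the unit's length, and the line through a point reaches the higher value from the lists of 1 replicate number. The 2 largest points, AAAT and AGAT, sit at 94.2% and 91.7%, far above the dashed line at 51.5% for BURs without a tract, and AATT stands alone at 14.6%.

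Strength in vitro and a peak in cells went together in BURs without a tandem repeat, and hardly in BURs with one. BURs with a tract were 89.9% free at a fold below 5, 84.5% free from 10 to 15 and 88.3% free from 20 to 25, so that their free share hardly followed strength. BURs without a tract were 69.1% free below a fold of 5, 41.7% from 5 to 10, 23.5% from 10 to 15, 17.3% from 15 to 20 and 14.7% from 20 to 25. Of the 60 BURs without a tract at a fold of 25 or more, 46 (76.7%) were free, and of the 45 of these that were fully unique, 37 were. The BURs near Akap13 and Lingo1 are among these 60, and both are less rich in A and T (54.0% and 47.9%) than the median free BUR (70.6%). Both are below the minimum A and T content that the paper gives for BURs.

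Fully unique BURs without a tandem repeat served as the comparison in which neither feature varied. There were 161068 of them, 80970 free (50.3%) and 80098 bound. Their median fold was 4.48 when free and 6.57 when bound, and their median length was 373 bp and 459 bp. The free share went from 75.7% in the lowest decile of fold to 19.9% in the highest, and from 75.2% in the shortest decile to 24.2% in the longest. The median of the longest stretch without C or without G, the segment that is typical of BURs, was 46 bp in all free BURs and 39 bp in all bound BURs, but 39 bp and 38 bp here.

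The direction of the difference in A and T content depended on the BURs compared. Over all BURs the median was 70.6% when free and 70.8% when bound, and the free share was high at both ends, 83.4% in the lowest decile (33.7% to 62.4% A and T), 49.3% in decile 4 and 70.1% in the highest (from 75.1%). The lowest decile lies below the minimum A and T content that the paper gives for BURs. Among fully unique BURs without a tract, free BURs were richer in A and T on 20 of 20 chromosomes, at a median of 72.3% against 71%, and the free share went from 35.5% in the lowest decile to 69.8% in the highest. The BURs bound in all 3 tissues had the lowest median, 68.7%. Among fully unique BURs with tracts kept, free minus bound was 0.903 points. The sign over all BURs also turned without replicate 1 of brain (0.0585 points), with peaks required in both replicates (0.0541), without the brain lists (1.26) and with lists of equal size (1.09), so no direction is read from all BURs.

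**Figure D2:**
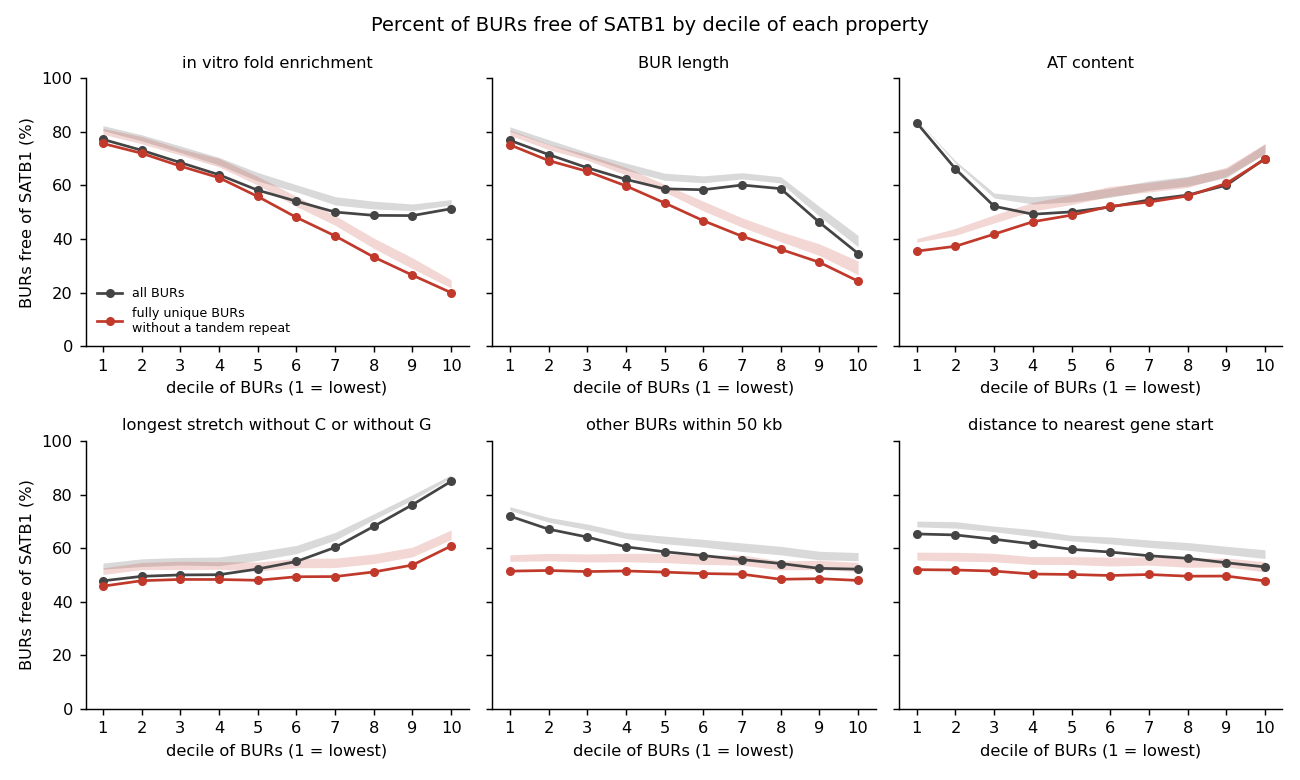
Each panel divides the BURs into 10 equal groups by a property (horizontal axis, 1 is the lowest decile) and plots the percentage that were free (vertical axis), for all BURs in grey and for fully unique BURs without a tandem repeat in red; bands span the values from the lists of replicate number 1 and of number 2. The red line for in vitro fold runs from 75.7% to 19.9% while the grey line ends at 51.3%, and for A and T content the grey line is U-shaped and the red line rises from 35.5% to 69.8%.

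Free and bound BURs also differed in their short sequences. In the same 161068 BURs, all 2080 words of 6 bases, each counted together with its reverse complement, were searched in the 200 bp around the summit. The word with the lowest share in free against bound BURs was CTAATA, present in 22.9% of the free and 46.2% of the bound BURs. It was followed by ATTAAT (34.6% and 53.9%), TAATAA (57.6% and 77%), TATTAA (55.9% and 74.0%) and ACTAAT (20.1% and 37.0%). These words overlap each other, and of all BURs 38.2%, 61.2%, 55.7% and 24.2% held them, in this order. All 12 of the lowest words hold the core TAAT or its complement ATTA, and 46 of the 48 words with this core were less frequent in free BURs, with a median difference of −5.10 percentage points. The core was taken from these 12 words, which are among the 48, so this count and median are a description and not a test. Of the 2032 other words 1467 were less frequent, with a median difference of −0.0644 points. TAAT is known as the core sequence of many homeodomain sites, and SATB1 carries a homeodomain. Whether this domain has a part in the difference was not tested. AATT tracts hold this core, as in the bound BUR shown above, and AGAT and AAAT tracts do not. AAT tracts hold it too, although 86.6% of their BURs were free.

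The words with the highest share in free against bound BURs were led by alternations of T and A. TATATA was present in 37.0% of the free and 25.1% of the bound BURs, ATATAT in 41.1% and 30.6%, and ATATAA in 56.6% and 47.0%. Of all BURs, 28.6%, 32.8% and 46.4% held these words. Words with runs of A were also among the 12 highest, such as AAAATA, in 78.8% of the free and 69.9% of the bound BURs. Of all BURs, 67.6% held AAAATA. None of the 12 highest words holds TAAT or ATTA. All 24 words had the same direction on 20 of 20 chromosomes. Over all BURs, tracts included, the 12 lowest words kept their direction, while 6 of the 12 highest were less frequent in free BURs. A match is a description of letters and not a binding site, and the words were picked from this same comparison.

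CTAATA was found in 30.0% of all BURs. Without it, 59.1% of the fully unique BURs without a tract were free, and with it 33.4%. The gap was present at every strength in vitro. In the weakest quartile of BURs by fold, 77.7% were free without the word and 56.6% with it, and in the strongest quartile 30.7% and 12.3%. It was present in the repeats as well, since 92.9% of the BURs with an AGAT tract were free without the word and 80.8% with it, and 95.6% and 82.3% of those with an AAAT tract. Across the lists of the 2 replicate numbers the difference in the share of CTAATA varied by an SD of 0.339 points (n = 2).

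**Figure D3:**
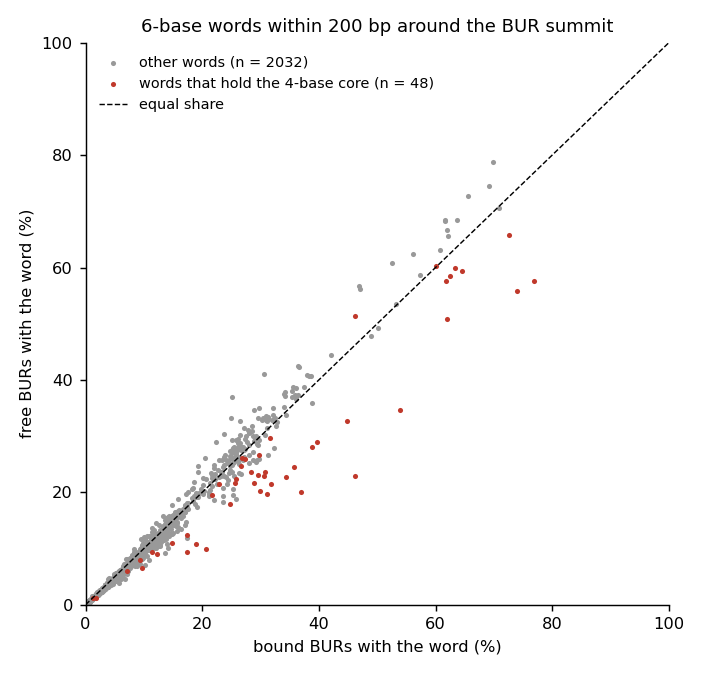
Each point is a word of 6 bases, with its share of the bound BURs on the horizontal axis and of the free BURs on the vertical axis, in percent, among fully unique BURs without a tandem repeat; red points hold the 4-base core and the dashed line marks equal shares. The red points lie below the line for 46 of 48 words, and the farthest below is CTAATA at 46.2% of bound and 22.9% of free BURs. The core was taken from the lowest of these same words.

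Free and bound BURs lay inside genes at similar rates. Of the free BURs, 31.9% lay inside a protein-coding gene and of the bound BURs 32.5%, a difference of −0.590 points with the same sign on 11 of 20 chromosomes. It was −1.26 points without the brain lists and −0.107 points when free BURs had no peak within 1 kb. Introns held 29.1% of each, and exons held 2.79% of the free and 3.38% of the bound BURs. Within 5 kb of a gene start, 64.7% of the BURs were free, and among fully unique BURs without a tract 51.6%. The median distance to the nearest gene start was 116 kb in free and 164 kb in bound BURs, and 166 kb and 180 kb in fully unique BURs without a tract. A free BUR had a median of 12 other BURs within 50 kb and a bound BUR 14, and in fully unique BURs without a tract both had 14.

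The free share varied little between chromosomes. It ranged from 56.1% on chromosome 16 to 65.7% on chromosome 7, with 62.6% on X. Chromosomes 11, 19 and 7 had the largest shares of BURs with a tandem repeat (30.4%, 27.1% and 27%), and 63.0%, 62.5% and 65.7% of their BURs were free. In fully unique BURs without a tract the range was 49.4% to 52.5%, beside an SD of 2.27 points between the replicate numbers over all of these BURs.

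**Figure D4:**
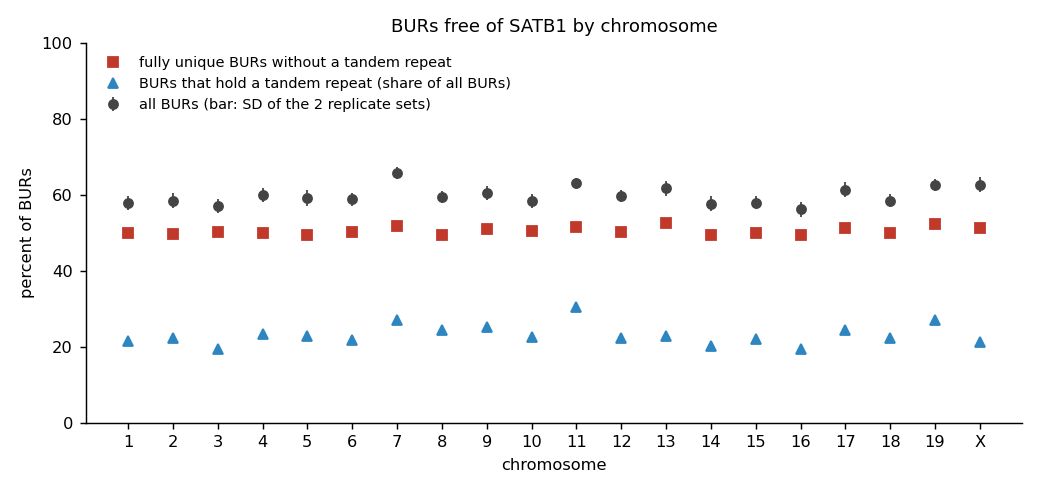
The percentage of BURs that were free is plotted for each chromosome, for all BURs (circles, with the SD over the lists of the 2 replicate numbers) and for fully unique BURs without a tandem repeat (squares), with the percentage of BURs that hold a tandem repeat (triangles). The circles range from 56.1% to 65.7% and the squares only from 49.4% to 52.5%.

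Along the chromosomes, the BUR after a free BUR was free in 60.1% of cases, and the BUR after a bound BUR in 58.5%. Free BURs formed 55081 runs with a median of 2 BURs. The longest runs lay in clusters of duplicated genes. The longest held 200 free BURs in a row on chromosome X (chrX:26287203-30217696) among 8 predicted genes, and on average 1.45% of their 50-base stretches were unique. A run of 119 on chromosome 14 (chr14:41942502-43984677) contained Mbl1 and Sftpd, which encode soluble lectins of innate immunity, the surfactant gene Sftpa1 and predicted genes, with 17.5% unique stretches. A run of 88 on chromosome 7 (chr7:7407542-8174600) contained the pheromone receptor genes Vmn2r32 to Vmn2r36, with 8.48%. A run of 78 on chromosome 14 (chr14:4383519-8581038) covered 90 genes, with 11.8%, and another of 78 on chromosome 4 (chr4:59929686-61351664) covered 16 Mup genes, which encode major urinary proteins, with 14.2%. At most 2 BURs in any of these 5 runs were fully unique. In fully unique BURs without a tract the longest run was 18, and 49.8% of BURs after a free BUR were free against 50.8% after a bound BUR.

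Single genes varied around the genome's share. Of the 741 protein-coding genes with at least 20 BURs in the gene body, the median gene had 55.6% of them free (quartiles 50.0% and 62.5%). Of the 10 highest, 5 were predicted genes, led by Gm16430 (26 of 28 BURs free, none of them fully unique). Among the named genes at the top were the kinase genes Csnk1g3 (17 of 20) and Tnik (22 of 26), Pdss2 (19 of 23), which takes part in coenzyme Q synthesis, the bicarbonate transporter gene Slc4a4 (26 of 32) and Wwox (29 of 36), in which 58.3% of the BURs held a tandem repeat. The lowest gene was Sis, the intestinal sucrase-isomaltase, with 6 of 24 free. After it came 2810055G20Rik (7 of 24), the glutamate receptor gene Grin3a (8 of 25), the neuronal splicing factor gene Nova1 (9 of 28), the collagen gene Col11a1 (17 of 51), St18 (16 of 48), the ephrin receptor gene Epha7 (12 of 36), C230081A13Rik (9 of 27), the adaptor gene Skap2 (8 of 24) and Itgb3bp (7 of 21). For Grin3a the free share was 36.0% with the lists of replicate number 1 and 52.0% with those of number 2, so that its place in the order is not sharp. These genes are the ends of a ranking by the rule's own outcome and are given as a description.

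The BURs inside or within 10 kb of protein-coding genes were 60.4% free (55443 of 91811). The vomeronasal receptor genes were at 68.3% (973 of 1424) and 42.6% of their BURs were fully unique, while in fully unique BURs without a tract the share was 56.8%. The olfactory receptor genes were at 55.8% (1867 of 3346), the Zfp zinc finger genes at 64.6%, the ribosomal protein genes at 68.7% and the clustered protocadherin genes at 64.4%. The Hox genes had only 19 BURs in all, of which 8 (42.1%) were free.

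The genes that mark the 3 tissues were compared in the same way, with 10 kb on either side. The T cell list was 56.3% free (58 of 103 BURs), the neuronal list 53.8% (1801 of 3349) and the epidermal list 57.1% (44 of 77), with SDs over the replicate numbers of 3.43, 2.60 and 4.59 points. With the lists of replicate number 1, the T cell list was above all protein-coding genes (65.0% against 63.3%), and with those of number 2 it was below them (60.2% against 65.7%), so it has no stable direction. The neuronal list was below them with both (57.0% and 60.7%), and so was the epidermal list (58.4% and 64.9%), the latter by less than its SD with all 6 lists. Of the BURs of the neuronal list, 18.1% held a tandem repeat, against 24.5% near all protein-coding genes, and many lay in long genes. The median of the 741 genes with at least 20 BURs in the gene body was 55.6% free, close to the neuronal list. In fully unique BURs without a tract the T cell, neuronal and epidermal lists were at 41.8%, 47.7% and 44.6%, against 50.0% near all protein-coding genes. These shares rest on 67, 2662 and 56 BURs. Of the 103 BURs of the T cell list, 35 lay at Themis and 22 at Satb1, so its share leans on single genes. In the T cell list, all 4 BURs at Cd4, the coreceptor of helper T cells, all 5 at Lck, the kinase of the T cell receptor, and both at Cd8b1 were free, and 75%, 100% and 100% of these held a tandem repeat. At Themis, a regulator of thymocyte selection, 23 of 35 were free, and at Ctla4, an inhibitory receptor, none of 3 was. Satb1 itself (chr17:51875512-51972615) had 22 BURs, within this distance, of which 4 (18.2%) were free, a count that is not that of the ranking by gene body, and with the lists of replicate number 1 the share was 31.8%. Among the long neuronal genes, the free counts were 242 of 449 in Lrp1b, 215 of 426 in Ptprd, 201 of 381 in Cntnap2 and 157 of 305 in Csmd3. At Trp63, the regulator of the epidermal lineage, 11 of 22 were free, and at its target Perp all 5 were.

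**Figure D5:**
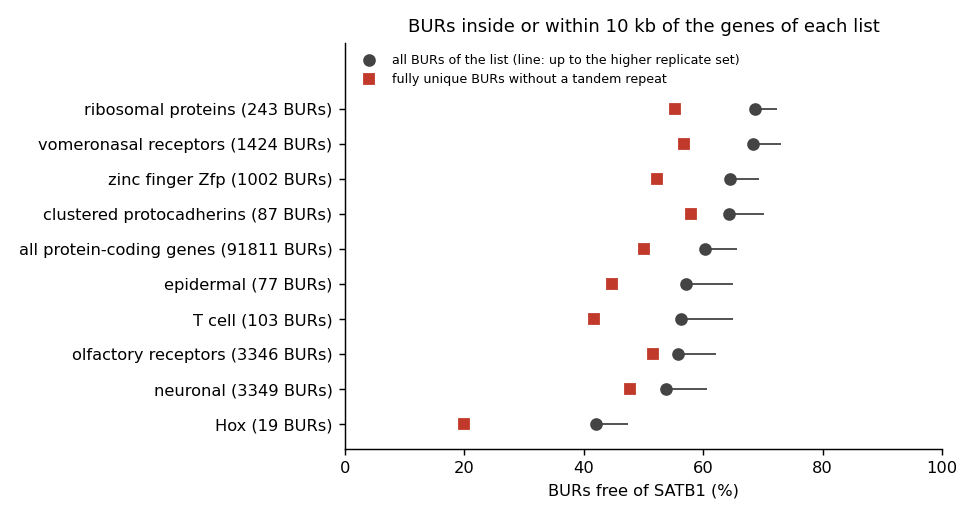
The percentage of free BURs (horizontal axis) is plotted for each gene list, for all BURs inside or within 10 kb of its genes (circles, with a line to the higher value from the lists of 1 replicate number) and for fully unique BURs without a tandem repeat (squares). The vomeronasal list is at 68.3% and the neuronal list at 53.8%, and the squares lie left of the circles in every list.

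The lists outside the rule rarely reached free BURs. Standard SATB1 ChIP-seq in thymocytes had peaks on 0.649% of all BURs in the first list and 0.521% in the second. On free BURs the shares were 0.734% (1012 BURs) and 0.554% (764 BURs), and on bound BURs 0.526% and 0.474%. The means were 0.644% ± 0.127 and 0.500% ± 0.0368 (SD, n = 2), a difference of 0.144 points, and the exact permutation test over the 2 lists (two-sided) gave p = 0.333, the smallest p this design allows. Paired within each list, the differences were 0.208 and 0.0802 points, and the exact permutation within pairs gave p = 0.500, also the smallest it allows. The 2 groups differ in how many BURs hold a tandem repeat, 33.0% of the free and 7.56% of the bound. Of the 1012 and 764 free BURs with a standard peak, 819 and 607 held a tandem repeat, and in fully unique BURs without a tract the order turned, with 0.178% and 0.158% of the free and 0.246% and 0.223% of the bound BURs. It also turned without the brain lists (−0.470 points) and with lists of equal size (−1.14 points). The 2 standard lists differed on the repeats, since 1.42% and 2.31% of the AGAT BURs and 2.3% and 0.731% of the AAAT BURs had a peak. The antibody and the sonication of these lists differ, and their part in this was not tested.

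CTCF peaks by urea ChIP-seq lay on 0.221% of all BURs in thymocytes and 0.522% in skin. Free BURs carried fewer of them than bound BURs, at 0.198% (273 BURs) against 0.256% in thymocytes and 0.453% (625 BURs) against 0.622% in skin, without a replicate. The mean difference of −0.114 points was −0.00279 points without the skin SATB1 lists, −0.456 without the brain lists and −0.887 with lists of equal size. Within 5 kb of a gene start the shares were 0.406% of the free and 1.05% of the bound BURs in thymocytes and 0.849% and 1.81% in skin. In all, 1930 free BURs (1.40%) had a peak of any of these 4 lists, 295 had a peak in both standard lists, 211 in both CTCF lists and 57 in all 4. The 3 strongest of these 57 lay near Scaf8 (chr17:3083502-3084051), Tacc1 (chr8:26374893-26375476) and Mkrn3 (chr7:69545250-69545902), with folds of 25.5, 21.6 and 19.7, all outside genes. The last 2 held AGAT tracts of 70 bp and 64 bp, and the BUR near Scaf8 had 60.8% unique stretches and a urea SATB1 peak 165 bp away. Peaks of antibodies to different proteins in the same repeat are given as measured, and their cause was not tested.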

How the data were processed

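Peak lists of 11 of the 38 samples were used, and the other samples are not analysed here. The authors mapped 50-base reads with bowtie2 2.3.1 to NCBI37/mm9, with 3 mismatches allowed in the seed and unique matches only, and ran MACS2 2.2.7 on every sample (threshold q-value 0.01). Use of an input as control is not given in the sources used here. The deposited fold enrichment is a ratio of summit signal to local background within a sample. The deposited −log10 q-value of each peak is on the scale of its own list. The deposited start, end and summit of each peak are positions. The lists hold no counts, so no counting intervals were made.

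Overlaps of at least 1 bp, sequence features (NCBIM37) and positions against 22350 protein-coding genes (GENCODE vM1) were computed with Python 3.11.15, numpy 2.4.6, pandas 2.3.3, numba 0.67.0 and pysam 0.24.0, checked on simulated data, and drawn with matplotlib 3.10.9. Positions are 1-based. The 5 BURs that run past their chromosome's end were clipped. Replicate numbers follow the sample labels, and the number 1 and number 2 lists of the 3 tissues gave the spread. The test was an exact permutation test (scipy 1.17.1).

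The regions and gene lists were chosen with earlier results of these data known. Named BURs were the 5 free ones of highest fold, the 3 with peaks in the most other lists, the 3 strongest with a peak in all 6 urea lists and those nearest the median fold, and sequences from chromosome 18 were left out. Named genes were the 10 highest and 10 lowest of those with 20 or more BURs, the 5 longest runs and members of the tissue lists. Tandem repeats, words, uniqueness, the BURs chosen for a tract and the settings without a tissue were added after seeing the data.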

Additional observations from a re-analysis of the deposited data

How the results depend on the processing

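Over 11 results and 183 alternatives, 8 had the other direction. The 175 counted as keeping the reported direction include values of 0, in the difference in other BURs within 50 kb. Counted as within the SD between replicate numbers were 97. That count took in every standard SATB1 alternative of the same sign without comparing it to the SD. With the free and bound shares paired within each standard list (a replicate block chosen after seeing the data), the difference was the same 0.144 points and the exact permutation p 0.500. The other results come from no test. Values below follow the order of the settings named first, and the cause of a change was not tested.

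The settings were 50% of the BUR covered, no peak within 1 kb, lists of equal size, peaks in both replicates, no brain lists, and fully unique BURs without a tandem repeat. The free share was 61.7%, 55.4%, 92.0%, 68.2%, 83.6% and 50.3%, and 59.5% to 64.8% with a replicate left out. The difference in median fold was −1.49, −1.39, −4.06, −1.87, −2.65 and −2.09. It was −1.55 with a −log10 q of at least 5, −1.60 by summits, −1.52 without thymocytes, −1.51 without skin, −0.202 within length classes and −1.69 to −1.51 with a replicate left out. The difference in median length was −43, −50, −91, −62, −63 and −86 bp, −55 bp by summits, −16 bp within fold classes and −58 to −52 bp with a replicate left out. The difference inside genes was −0.941, −0.107, −0.412, −0.675, −1.26 and −0.849 points, −0.610 with a −log10 q of at least 5, −0.637 by summits, −0.611 without thymocytes or without skin, and −0.639 to −0.591 with a replicate left out.

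For the other results only the settings that moved them are given. The difference in A and T content was −0.444 points with no peak within 1 kb and −0.599 within length classes. It had the other sign with lists of equal size (1.09), with peaks in both replicates (0.0541), without brain (1.26) and in fully unique BURs without a tract (1.30), and ran from −0.181 to 0.0585 with a replicate left out. The difference in the longest stretch was 8 bp with no peak within 1 kb, 3 bp with equal sizes, 6 bp with peaks in both replicates, 4 bp without brain, 1 bp in the unique BURs and 6 to 7 bp with a replicate left out. That in other BURs within 50 kb was −3, 0, −1 and 0 with no peak within 1 kb, equal sizes, no brain and the unique BURs, and −2 with any replicate left out. The standard SATB1 difference was −1.14 with equal sizes, −0.470 without brain and −0.0667 in the unique BURs. It was 0.212 with 50% covered, 0.181 with no peak within 1 kb, 0.0725 with peaks in both replicates and 0.322 without skin. With a replicate left out it ran from 0.0644 to 0.208. The CTCF difference was −0.887 with equal sizes, −0.155 with peaks in both replicates, −0.456 without brain, −0.00279 without skin, −0.0837 in the unique BURs and −0.152 to −0.102 with a replicate left out. The tandem repeat difference was 38.1 points with no peak within 1 kb, 5.88 with equal sizes, 28.4 with peaks in both replicates, 13.0 without brain, 29.5 in fully unique BURs and 30.6 to 35.03 with a replicate left out. The CTAATA difference was −26.5 with 50% covered, −25.9 by summits, −28.8 with equal sizes, −26.1 with peaks in both replicates, −30.4 without brain, −23.3 in the unique BURs and −26.0 to −25.5 with a replicate left out.

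The lists hold only called peaks, so a weak peak below the authors' threshold cannot be told from none.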
